A study of Mus musculus with 2 samples.

Results

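Bdnf encodes brain-derived neurotrophic factor, a secreted protein that acts through the receptor tyrosine kinase TrkB and is known for its role in synaptic plasticity and neuronal survival in the cerebral cortex. The gene has a row of alternative first exons, numbered with Roman numerals from the 5′ end, each with a promoter of its own and each spliced to the same coding exon. Promoters I and IV are the ones best known for responding to neuronal activity, and promoter IV carries a cAMP response element (CRE) bound by the transcription factor CREB. The locus was taken as the annotated gene with 10 kb on each side, and its members are the accessible sites, that is the DNase-seq peaks, that overlap it. There were 10 of 72021 peaks in replicate 1 and 3 of 59150 peaks in replicate 2. The gene is 1 of 21755 protein-coding genes on chromosomes 1 to 19 and X.

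In DNase-seq, nuclei are treated with DNase I, whose cuts pile up where chromatin is open. A library was made from the left cerebral cortex of each of 2 mice, which were B6CASTF1/J males 36 days old. Both mice are in 1 group, so nothing can be tested between groups, and spread is given as the SD of the 2 mice. Heights were used as deposited. Over all sites with a peak in both mice, replicate 1 was higher by a median of 1.38 times. Each SD of heights therefore also holds this difference between the libraries, and a small SD does not by itself mark a more precise value. Their donor label is shared, although the titles number the males separately. The strain name stands for hybrids of a C57BL/6J and a CAST/EiJ parent. Reads were placed on the reference genome mm10, and the parental copies were not told apart. Peaks carry a height, a deposited signal that is always a whole multiple of 1 step, read here as cuts scaled to the library, which puts the libraries at about 160100000 and 145400000 cuts. All 5 reported markers of cortex and excitatory neurons had a start-site peak in both mice, beside 57.7% of all coding genes. The 3 microglial and 2 endothelial markers had none in either. Such a peak was present in both mice at 1 of 4 astrocyte and 1 of 2 oligodendrocyte markers. At the latter, Mbp, the mice had it at different starts, and no start had a peak in both. It was present in both at 0 of 5 inhibitory neuron and 0 of 3 hindbrain and spinal cord markers. In bulk tissue, fewer cells of a type and less accessibility per cell cannot be told apart.

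Bdnf lies on the plus strand of chromosome 2 at 109674700 to 109727007 (GRCm38, GENCODE M21, ENSMUSG00000048482.14) and spans 52308 bp. The nearest coding genes are Kif18a, 333.0 kb upstream, and Lin7c, 163.8 kb downstream. Its 11 annotated transcripts begin at 9 positions, which form 8 start clusters when positions within 100 bp are joined. In order these are first exon I at 109674700, II at 109675897, III at 109677032, IV at 109692436, V at 109693027, VI at 109693563, VII at 109694409 and 109694469, and VIII at 109709383. The main coding exon holds coding sequence from 109723382 to 109724149. A pair of noncoding genes share the 5′ end, Gm45346, antisense to Bdnf with its start at 109676591, and Gm20638, with its start at 109673166. DNase-seq does not show strand, so a peak near these starts cannot be given to Bdnf alone.

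The 3 sites accessible in both mice are shown first, since the results turn on them. The sequences are the plus strand of GRCm38. In both intronic sequences, capitals mark footprints of replicate 1, which are short stretches protected from cutting inside an open site. In promoter IV, they mark, from left to right, a 10-base match of the calcium response element CaRE1, the E-box CATATG and the CRE.
Intronic site downstream of first exon III, chr2:109678141-109678420: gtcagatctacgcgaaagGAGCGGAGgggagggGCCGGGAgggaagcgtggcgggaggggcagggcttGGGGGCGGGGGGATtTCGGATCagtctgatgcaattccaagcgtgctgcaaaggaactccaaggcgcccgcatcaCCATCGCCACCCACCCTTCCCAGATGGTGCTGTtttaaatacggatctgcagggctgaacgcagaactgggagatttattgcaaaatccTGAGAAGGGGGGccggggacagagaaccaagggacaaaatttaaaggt
Promoter IV up to its start, chr2:109692321-109692435: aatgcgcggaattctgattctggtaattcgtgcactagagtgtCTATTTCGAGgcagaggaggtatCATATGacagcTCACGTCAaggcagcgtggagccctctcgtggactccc
Intronic site downstream of first exon VII, chr2:109694921-109695120: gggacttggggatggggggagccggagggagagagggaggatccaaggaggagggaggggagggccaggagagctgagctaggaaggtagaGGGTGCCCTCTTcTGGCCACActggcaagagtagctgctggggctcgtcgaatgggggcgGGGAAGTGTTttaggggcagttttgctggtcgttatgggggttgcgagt

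Accessibility at Bdnf was gathered in 2 short stretches at the 5′ end, one around first exons I to III and one around first exons IV to VII. From 5000 bp upstream of first exon VIII to the end of the window, where the coding exon lies, the shorter list had no peak in either mouse. The stretch of I to III held 6 peaks covering 2340 bp in replicate 1 and 1 peak covering 220 bp in replicate 2. The stretch of IV to VII held 4 peaks covering 1238 bp in replicate 1 and 2 peaks covering 189 bp in replicate 2. Over the whole window this gave 6.5 ± 4.95 peaks (mean ± SD, n = 2 mice, here and below). The longer, less strict peak list had 12 peaks there in replicate 1 and 4 in replicate 2. The median peak width at Bdnf was 360 bp in replicate 1 and 104 bp in replicate 2, beside 205 and 200 bp over all peaks. In the longer list the same 3 peaks of replicate 2 were 220, 220 and 200 bp wide, beside 360, 240 and 200 bp for the overlapping peaks of replicate 1.

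**Figure D1:**
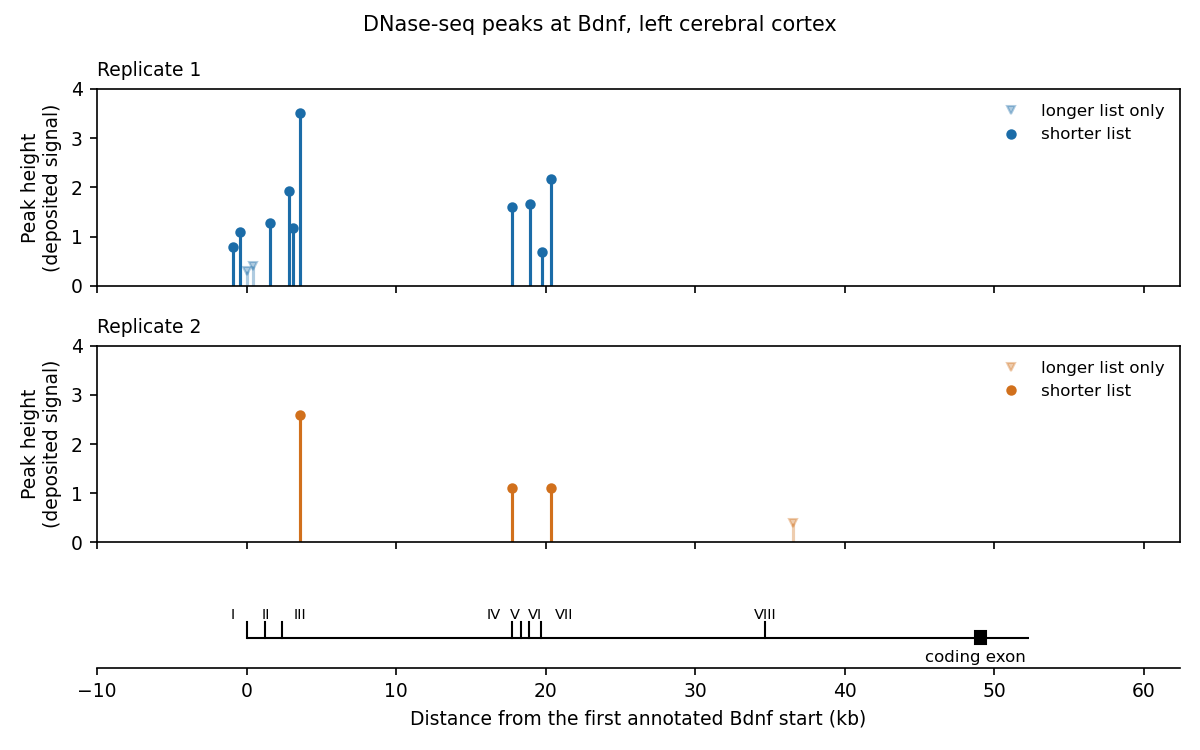
Peak height (deposited signal, vertical axis) against distance from the first annotated Bdnf start (kb) in replicate 1 (upper panel) and replicate 2 (middle panel), with the 8 start clusters and the coding exon below. Circles are peaks of the shorter list and pale triangles are peaks found in the longer list alone; 3 positions carry a circle in both mice and none lies 3′ of first exon VII's intronic site.

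The highest site of the locus was intronic and lay more than 1 kb from every annotated start. It had a height of 3.50 in replicate 1 and 2.59 in replicate 2 (3.05 ± 0.644). Read as cuts, that is 561 (95% Poisson interval of the height 3.22 to 3.81) and 377 (2.34 to 2.87). Its nearest edge was 1029 bp downstream of first exon III in replicate 1 and 1149 bp in replicate 2. Measured from first exon I it ran from 3361 to 3720 bp in replicate 1 and from 3481 to 3700 bp in replicate 2. An intronic enhancer a few kilobases downstream of first exon I has been described in rodent neurons, and no value here shows whether this site acts as one. Its height stood above 86.2% of the peaks of replicate 1 and 87.2% of those of replicate 2.

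Promoter IV was the only one of the 8 whose start lay inside a peak in both mice. The peak ran from 109692321 to 109692560 with a height of 1.60 in replicate 1. In replicate 2 it ran from 109692362 to 109692465 with a height of 1.11, so that the site averaged 1.36 ± 0.343. The lowest false discovery rate of the cut rate under it was 1.85e-16 in replicate 1 and 0.000123 in replicate 2. The peaks of both mice hold the CRE, which lies 38 to 31 bp upstream of the start.

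The third shared site lay in the intron downstream of first exon VII and was the highest peak within 1 kb of any start in replicate 1. Its height was 2.17 in replicate 1 and 1.10 in replicate 2 (1.63 ± 0.754). Its edge lay 452 bp from the nearer of the VII starts in replicate 1 and 516 bp in replicate 2. In replicate 2 the promoter IV peak was slightly higher, with overlapping counting intervals (0.949 to 1.30 for IV, 0.937 to 1.29 for the VII site).

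The other 7 sites of the locus were called in replicate 1 alone. At promoter I, known for activity-dependent transcription, abutting peaks of 0.793 and 1.10 ended 680 and 240 bp upstream of the start. Neither holds the start itself, which lay in a weak peak of 0.300 in the longer list of replicate 1. Another weak peak of that list, 0.406 high, began 251 bp downstream of the start. The first of these upstream peaks begins 335 bp downstream of the Gm20638 start. At first exon II a peak of 1.27 began 144 bp downstream of the start and ended 131 bp from the start of the antisense Gm45346.

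Downstream of first exon III, abutting intronic peaks of 1.92 and 1.18 began 349 and 589 bp from the start. At first exon VI a peak of 1.66 covered the start. A peak of 0.687, the lowest of the locus, covered both VII starts, where replicate 2 had no base at a false discovery rate of 0.05 or less. First exon V had no peak assigned to it as the nearest start, but peaks of its neighbours IV and VI came within 1 kb, at 467 bp upstream and 394 bp downstream in replicate 1 and at 562 bp upstream in replicate 2. First exon VIII had no peak within 1 kb in either list of either mouse. In all, 7 of 8 start clusters in replicate 1 and 3 of 8 in replicate 2, namely IV, V and VII, had a peak within 1 kb.

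At weaker thresholds replicate 2 still showed little of the I to III stretch outside the shared intronic site. The authors list bases with a false discovery rate of 0.05 or less, called listed bases here, and these came to 7054 bp of the window (9.76%) in replicate 1 and 1118 bp (1.55%) in replicate 2. The ratio was 6.31, beside 1.51 over all listed bases of the genome. Within 1 kb of the starts of first exons I and II there were 1439 and 1108 listed bases in replicate 1 and 0 in replicate 2. Near first exon VI the lowest rate was 1.57e-18 in replicate 1 and 0.0354 in replicate 2, where 49 bases were listed. The longer peak list of replicate 2 added 1 weak peak, 0.399 high, in the intron 1832 bp downstream of first exon VIII, with a lowest rate of 0.0163 and no counterpart in replicate 1.

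The sites called in replicate 1 alone ranged from low to above the median of that library. Their heights ran from 0.687 to 1.92, against a median of 1.18 over all peaks of that library and 0.774 over its peaks without an overlap in replicate 2. Of the 10 Bdnf peaks of replicate 1, 3 were overlapped in replicate 2, beside 63.0% of all peaks of replicate 1. Among peaks within 10% of the height of the intronic peak of 1.92, 82.3% were overlapped in replicate 2, and 93.9% by its longer list. For the peak over first exon VI the shares were 76.7% and 91.3%. For the peak at first exon II, 1.27 high, they were 65.3% and 85.3%. For the peaks of 1.18 and 1.10 the share overlapped in replicate 2 was 61.7% and 57.7%, and for the lowest, of 0.793 and 0.687, it was 43.5% and 38.1%. These are descriptions of 2 libraries, without a test.

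Where a site was called in both mice, heights differed by about as much as elsewhere in the genome. Replicate 1 was higher by 1.35 times at the intronic site downstream of III (log2 ratio 0.43, exact 95% interval 0.24 to 0.63) and 1.43 times at promoter IV (0.52, 0.23 to 0.81). At the site downstream of VII it was higher by 1.97 times (0.98, 0.70 to 1.26). Over all 43925 shared sites the median ratio was 1.38, with quartiles of the log2 ratio at 0.085 and 0.86, so that the VII site lay above the upper quartile and the other 2 between the quartiles. These intervals cover counting error only.

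Among 293 coding genes with 10 peaks in replicate 1, the median in replicate 2 was 6 peaks (quartiles 5 and 8). Of these genes, 41, or 14.0%, had 3 peaks or fewer in replicate 2, Bdnf among them. All coding genes, each with 10 kb on each side, summed to 75377 peaks in replicate 1 and 58875 in replicate 2, a ratio of 1.28. The 5 reported markers of cortex and excitatory neurons summed to 48 peaks in replicate 1 and 19 in replicate 2, a ratio of 2.53, with more in replicate 1 at 4 of 5 genes and 10 in each mouse at Camk2a. The sums were 10 and 9 for 5 inhibitory neuron markers, 22 and 18 for 4 astrocyte markers, 18 and 14 for 2 oligodendrocyte markers, 21 and 12 for 3 microglial markers, 2 and 2 for 2 endothelial markers and 3 and 0 for 3 hindbrain and spinal cord markers. The microglial genes Cx3cr1, P2ry12 and C1qa and the endothelial genes Cldn5 and Cdh5 had no start-site peak in either mouse. Nor had the hindbrain genes Hoxa5 and Hoxb4, or Sst and Aqp4. Of the other markers in these lists, Gfap had 1.94 and 1.22 and Mbp, at different starts in the mice, 2.69 and 1.27. In replicate 1 alone, En1 had 1.36, Gad1 and Pvalb 1.22 each, Aldh1l1 1.09, Slc1a3 0.918 and Gad2 0.831. In replicate 2 alone, Slc32a1 had 1.07 and Mog 0.750. The part of cell composition, depth and peak calling in the Bdnf difference was not tested.

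**Figure D2:**
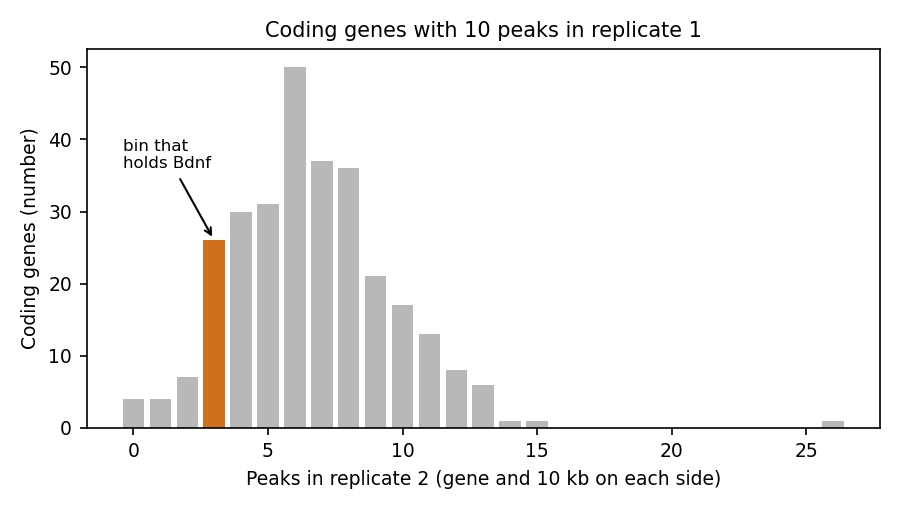
Number of coding genes (vertical axis) by their number of peaks in replicate 2 (horizontal axis), among the 293 coding genes with 10 peaks in replicate 1, counted from 10 kb before to 10 kb after each gene. The coloured bar, at 3 peaks, holds Bdnf; the median of the genes is 6.

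By the number of its starts Bdnf ranked high among coding genes, and by its highest peak within 1 kb of a start it ranked in the middle. Its 8 start clusters put it at percentile 96.0, against a median of 2 clusters. Its 10 peaks in replicate 1 stood at percentile 94.2 and its 3 in replicate 2 at 64.8. The highest start-site peak, 1.64 ± 0.744, was the intronic site downstream of VII in replicate 1 and promoter IV in replicate 2. Its SD is thus not the spread of 1 site. This mean stood at percentile 50.8 of all coding genes and at 37.8 among 6113 genes with 0.5 to 2 times the length of Bdnf. Both ranks depend on the limit of 1 kb, which leaves out the highest site of the locus. Within 2500 bp of a start the mean was 3.05, for which no rank is given. Of the Bdnf start clusters 37.5% had a peak in both mice, beside 35.4% of the 62978 start clusters of all coding genes and 31.5% of those in 388 genes with 8 clusters. In replicate 1 alone the share was 87.5% for Bdnf and 41.4% for all start clusters, and in replicate 2 it was 37.5% and 36.4%. The Bdnf clusters with a peak in both mice were IV, V and VII, and V was counted through the promoter IV peak. Within 500 bp of a start, 1 Bdnf cluster had a peak in both mice.

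The 5 coding genes nearest to Bdnf in summed percentile difference over 4 measures (start clusters, shared sites, share of start clusters with a peak in both mice, mean highest start-site peak) were Nsmaf, Tcp11, Acsl6, Rtkn and Spag1. The nearest, Nsmaf, also had 8 start clusters with 3 in both mice and 3 shared sites, and its highest start-site peak was 1.98 in replicate 1 and 0.894 in replicate 2. The measures rest on the 2 libraries alone. Acsl6 was the one of these with as many peaks in replicate 1, 10 against 4 in replicate 2.

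Footprints at Bdnf numbered 43 in replicate 1, of which 36 lay wholly inside a peak, and 7 in replicate 2, of which 4 did. Per kb of peak this was 10.1 and 9.78 footprints at Bdnf, beside 11.2 and 13.2 over all peaks. The value of replicate 2 rests on 4 footprints in 409 bp of peak. The cause of its lower number of footprints was not tested. The peak over first exon VI held 9 footprints in replicate 1, a number reached by 1.65% of the peaks of that library. This share is not adjusted for width, and the peak, at 440 bp, was wider than 93.3% of them. Replicate 2 had neither a peak nor a footprint there. The peak of replicate 1 over the VII starts held 0.

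**Figure D3:**
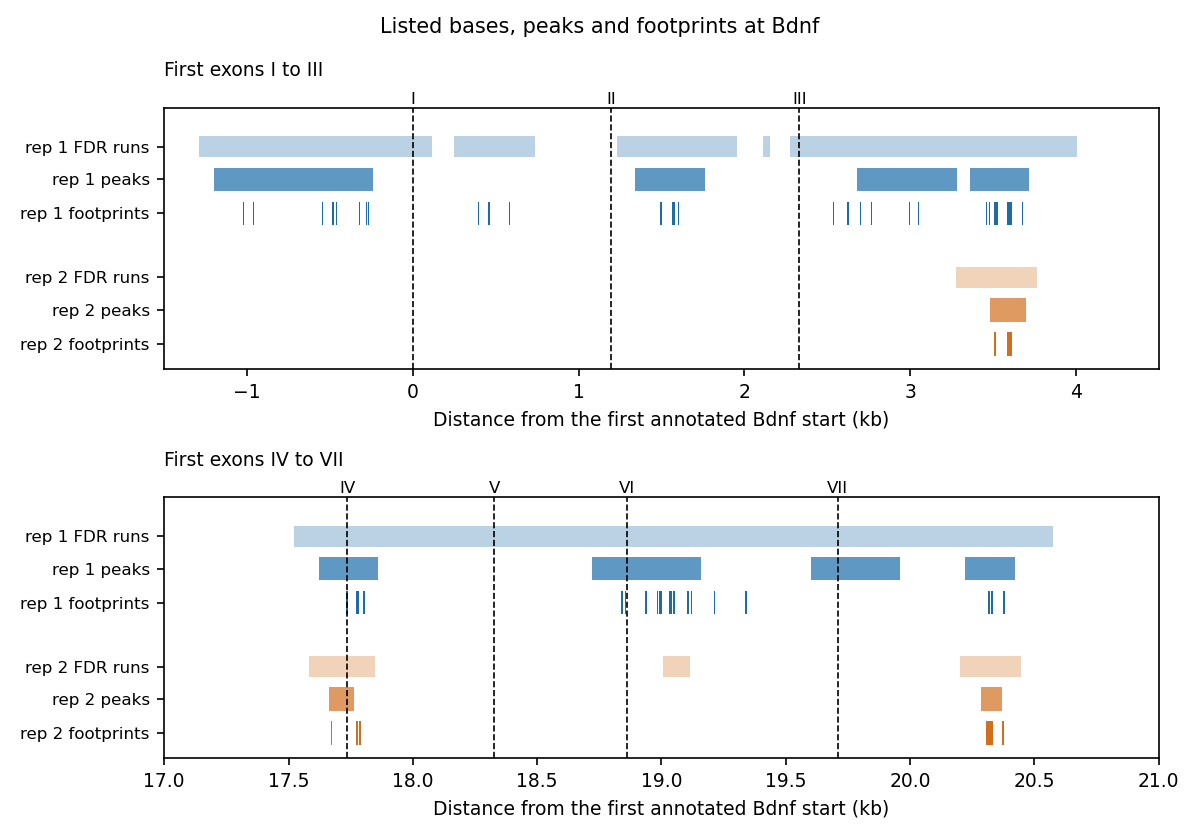
Runs of listed bases (false discovery rate of 0.05 or less, runs joined across gaps of up to 100 bp), peaks of the shorter list and footprints in replicate 1 (upper rows of each panel) and replicate 2 (lower rows), against distance from the first annotated Bdnf start (kb). Dashed lines are annotated starts; in the upper panel the marks of replicate 2 lie around the highest intronic site downstream of III.

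A footprint called in both mice at the intronic site downstream of III was the widest of the locus in replicate 1. It spanned 33 bp in replicate 1 and 29 bp in replicate 2, and the shorter lay inside the longer. Footprints of 25 bp or more made up 5.03% of all footprints in replicate 1 and 8.74% in replicate 2. Capitals mark the E-box CAGATG, a form bound by NeuroD family factors.
Replicate 1, chr2:109678284-109678316: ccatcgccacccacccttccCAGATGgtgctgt
Replicate 2, chr2:109678286-109678314: atcgccacccacccttccCAGATGgtgct
This E-box, searched on both strands, is found in 25.2% of 300-bp windows centred on shared sites. A second footprint of 14 bp in each mouse, offset by 1 base, covers a GC box (GGGCGG), the form bound by Sp1 family factors, which 31.6% of such windows hold.

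At the site downstream of VII, replicate 2 had a footprint of 30 bp where replicate 1 had a pair of 12 and 8 bp. Capitals mark a match on the minus strand of CCA, 2 free bases, AG, 2 free bases and GGC. This is a variant of the pattern of the insulator protein CTCF and was chosen after this footprint was seen.
Replicate 2, chr2:109695005-109695034: aggtagagggtGCCCTCTTCTGGccacact
The variant is found in 12.2% of windows on shared sites and 3.02% of the promoters of all coding starts (300 bp upstream to 100 bp downstream). The CTCF pattern searched at first, CC, 3 free bases, AGG, 1 free base and GGC, had no match in any Bdnf peak. It fixes as many bases as the variant and is found in 9.98% of windows on shared sites and 3.88% of promoters. A second match of the variant lay in promoter IV, outside the footprints of both mice. A match is a description of the letters and not of a bound protein.

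In promoter IV the known regulatory elements were present in the printed order, with little footprint overlap. The CRE pattern TNACGTCA is found in 2.54% of promoters of all coding starts, and promoter IV was the only one of the 8 Bdnf promoters with a match. It lay outside the footprints of both mice, as did the E-box at 49 to 44 bp upstream of the start, known to be bound by USF proteins. The CaRE1 match, bound by the factor CaRF, lay 72 to 63 bp upstream of the start and was covered over at least 50% of its length by a footprint of replicate 2 alone. Its pattern, CTATTT, 1 free base and GAG, was added after the sequence was seen and is found in 0.243% of promoters. A footprint that both mice shared here, 12 bp in replicate 1 and 7 bp in replicate 2, lay inside first exon IV. In replicate 2 it lay beyond the end of the shorter-list peak and inside the longer-list peak.

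At first exon II the reference holds a perfect match of CAGCACC, 2 free bases and GGACAG, the core of the RE1 element bound by the repressor REST, 150 to 164 bp downstream of the start, beyond the promoter window. It lay in the peak of replicate 1 and outside its footprints, and replicate 2 had no listed base there. The pattern is found in 0.0615% of 300-bp windows centred on shared sites. In promoters of all coding starts, whose window ends short of this position, it is found in 0.0445%. Capitals mark it here.
RE1 match in first exon II, chr2:109676040-109676069: gtccattCAGCACCTTGGACAGagccagcg

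The 8 promoters differed in base composition, taken from 300 bp upstream to 100 bp downstream of each start. Promoter VI had 64.5% GC and 29 CpG pairs, and promoter I had 56.8% and 17. Promoter IV had 48.8% and 14, and promoter II 40.2% and 8. Promoter VIII, the only start cluster without a peak within 1 kb in either mouse, had 40.8% GC and 2 CpG pairs, a ratio of observed to expected CpG of 0.121 beside a median of 0.333 over all promoters. The other 7 had ratios between 0.444 and 0.707.

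The other genes of the pathway were taken from lists chosen with earlier results of these data known. Of the related ligands Ntf3 and Ntf5, 0 of 2 had a start-site peak in either mouse, while Bdnf had one in both. Over the gene body with 10 kb on each side, Ntf3 had 5 peaks in replicate 1 and 1 in replicate 2, and Ntf5 had 2 and 1. All coding genes had a start-site peak in 63.5% and 58.4% of cases, and in both mice in 57.7%. The median of their mean heights was 1.55.

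Among receptors, 4 of 4 had a start-site peak in both mice, beside 57.7% of all coding genes. Ntrk2, which encodes TrkB, had 5.61 and 3.78 (4.69 ± 1.30), and Sort1, which encodes the sorting receptor sortilin that binds the precursor of BDNF, had 3.79 ± 1.44. Ntrk3, the receptor of NT-3, had 1.91 ± 1.06 and Ngfr, the p75 neurotrophin receptor, 0.882 ± 0.352. Ntrk2 had 26 peaks in and around its gene in replicate 1 and 17 in replicate 2.

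Genes that process or store the precursor had a start-site peak in 5 of 5 cases in replicate 1 and 3 of 5 in replicate 2. The shares over all coding genes were 63.5% and 58.4%. Plat, the tissue plasminogen activator, had 3.79 ± 0.362, Cpe, which takes part in sorting BDNF to the regulated pathway, 3.43 ± 2.08, and the prohormone convertase Pcsk1 1.23 ± 0.898. Furin, a convertase that cleaves the precursor inside the cell, had 1.09 and Mmp9, a protease that cleaves it outside, had 2.29, both in replicate 1 alone. Beside 57.7% of all coding genes, all 9 reported genes of TrkB signalling had a start-site peak in both mice. The highest of these were the exchange factor gene Sos1 at 5.39 ± 2.88, Pik3r1, a subunit of PI3-kinase, at 5.19 ± 1.73 and the adaptor gene Shc1 at 4.84 ± 0.344. The lowest were Akt1 at 1.44 ± 0.337 and Camk4, a calcium-dependent kinase of neuronal nuclei, at 1.64 ± 1.25.

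All 20 genes for factors that regulate Bdnf transcription had a start-site peak in both mice, beside 57.7% of all coding genes. The AP-1 gene Jun had 11.4 ± 2.91, Creb1, which encodes CREB, 9.59 ± 3.18, and Rcor1, a corepressor of REST, 8.87 ± 0.0687. The lowest were Rest at 0.866 ± 0.436 and Nfkb1 at 1.30 ± 0.948. These 20 genes summed to 102 peaks in replicate 1 and 95 in replicate 2, a ratio of 1.07. The ratio was 3.5 for the ligands, 1.73 for the receptors, 1.7 for the processing genes and 1.48 for the signalling genes, beside 10 and 3 peaks for Bdnf and 1.28 over all coding genes. The activity-regulated Fos and Npas4 in this list had 6 and 7 peaks in replicate 1 and 7 and 5 in replicate 2.

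**Figure D4:**
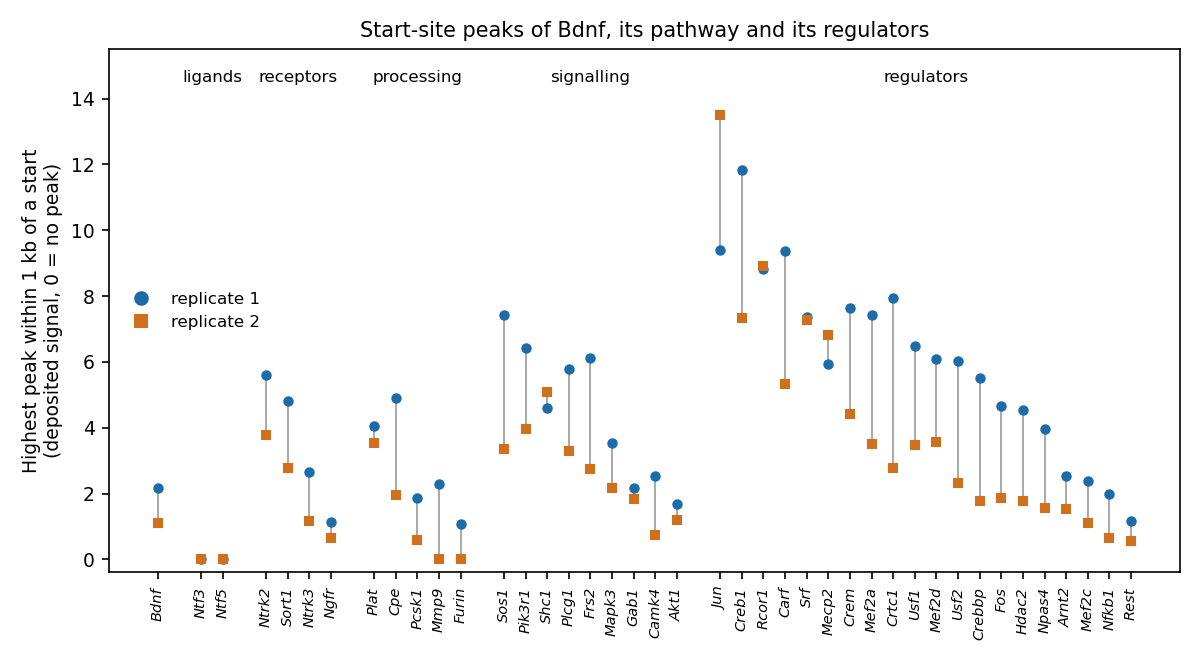
Highest peak within 1 kb of an annotated start (deposited signal, vertical axis, 0 where no peak was called) for Bdnf and the 40 reported genes of the lists, with replicate 1 as circles, replicate 2 as squares and a line joining the mice. Bdnf, at 2.17 and 1.11, stands above the 2 other ligand genes at 0 and below most signalling and regulator genes.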

How the data were processed

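DNase-seq libraries of 2 mice, 1 group, were used. Per the deposited file list, all files were made from the filtered mm10 alignments of each library, without pooling. Aligner, peak caller and footprint caller: not given in the sources used here. Each deposited peak has a signal value, the height, and no file says how it was scaled. Heights were whole multiples of 1 step (100% within 0.02 of a step), from which about 160100000 and 145400000 cuts were inferred. The deposited false discovery rate list gives a q-value (adjusted p-value) per run of bases, and the footprint score is 0.01 throughout and was not used. The shorter peak list was the main one.

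Chromosomes 1 to 19 and X, GENCODE M21 and GRCm38.p6 sequence (RefSeq) were used, with Python 3.11.15, NumPy 2.4.6, pandas 2.3.3, SciPy 1.17.1 and matplotlib 3.10.9. Coordinates are 1-based. Peaks overlapping by 1 bp were merged into sites. A start-site peak comes within 1 kb of a start, and each peak was assigned to its nearest start. Percentiles of genes count ties as 50%, and shares of peaks below a given height or width count lower values alone. Sequence patterns, 17 at first and 2 added after the data were seen, were searched on both strands, and overlapping patterns were counted separately. Named genes of each list are the 3 highest, the 2 lowest and those with a peak in 1 mouse alone. With 1 group there is no test and no p. Some genes of the lists are not reported here and are left out of the counts of their lists. Members and lists were chosen with earlier results of these data known. Counting and motif procedures were tested on simulated data. Alternatives were the longer list, the higher 50% of peaks, other distances, overlaps, flanks, limits, scaling and leaving out each mouse.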

Additional observations from a re-analysis of the deposited data

How the results depend on the processing

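Of 44 alternatives over 9 results, 31 stayed within 1.5 times a count or within the SD of a value, and 13 moved. Some of the 31 carry no information. With 2 mice each value lies within the SD of their mean, so leaving out 1 mouse could not move the highest start-site peak. The longer list repeated the main values of the highest start-site peak, 1.64, and of the log2 ratio of the mice, 0.52. Leaving out 1 mouse gave 3 to 10 peaks, 4 to 36 footprints in peaks (20 on average), 1118 to 7054 listed bases, 3 to 7 start clusters with a peak and percentiles of 64.8 to 94.2 by peak number (89.3 for both). It gave 1.11 to 2.17 for the highest start-site peak and 36 to 38 of the 40 listed genes. The 3 shared sites became 1 when each peak had to overlap by 50%, since this asks for an overlap of that share of both peaks; the cause of the narrower peaks of replicate 2 was not tested. The 3 start clusters with a peak in both mice became 1 within 500 bp of a start and 6 within 2500 bp, where the highest start-site peak became 3.05 through the intronic site downstream of III. With heights divided by the median of shared sites the median log2 ratio of the mice at Bdnf was 0.014, against 0.52 unscaled. RefSeq starts, added after seeing the data, gave 3 of 9 start clusters with a peak in both mice. The RefSeq start at 109722921, absent from the GENCODE clusters, had no peak within 1 kb in either mouse. Listed runs in place of peaks, also added later, gave 4 runs of replicate 2 that overlap replicate 1. Of these, 3 lie in 1 run of replicate 1, so this does not count merged sites, although it is among the 31. With 2 libraries of 1 group, peaks absent from a list are not shown to be closed, and the depth is inferred. No paired analysis was possible because there is 1 group.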

Other observations

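The larger number of peaks in replicate 1 was uneven among the markers of cortex and excitatory neurons, genes picked out here after their values were seen. Tbr1, a transcription factor of deep-layer neurons, had 16 peaks in and around the gene in replicate 1 and 1 in replicate 2. Emx1, a transcription factor of the developing cortex, had 8 and 1, and Neurod6 had 6 and 1. Camk2a, the synaptic kinase gene, had 10 in each, and Slc17a7, the vesicular glutamate transporter, 8 and 6. The start-site peaks of all 5 were present in both mice. The cause of the difference was not tested.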
